A study of Mus musculus with 18 samples.

Results

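The Ifi200 genes considered here encode mouse PYHIN proteins, relatives of the DNA sensor Aim2, and were followed in bone marrow derived macrophages. They were taken by symbol from the deposited gene table as Ifi202b, Ifi203, Ifi204, Ifi205, Mnda, Mndal and Pyhin1, that is 7 of 21954 genes. The table lists 5 of them under those symbols, and the other 2 under newer ones, Ifi209 for Pyhin1 and Ifi211 for Mnda, matched through RefSeq synonyms. Aim2 and 5 further PYHIN genes of the table (Ifi206, Ifi207, Ifi208, Ifi213 and Ifi214) served for comparison. The macrophages carried either a knockout of L13a, a ribosomal protein encoded by Rpl13a, or the wild type gene, and were treated with IFN, treated with IL4, or left untreated. The 6 groups were knockout with IFN, wild type with IFN, knockout with IL4, wild type with IL4, knockout untreated and wild type untreated, with 3 poly-A RNA libraries each. The study's title calls the knockout macrophage-specific, and the labels name neither the strain nor age of the mice, the Cre or allele, the type of IFN, nor doses and times. No label says that replicates came from different animals or cultures, so the p-values measure the spread between these libraries, which may be technical.

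PYHIN proteins usually join an N-terminal pyrin domain, which binds other pyrin domains, to 1 or more C-terminal HIN domains, which bind DNA. Aim2 binds DNA in the cytosol and assembles an inflammasome through the adaptor Pycard, while Ifi204 is often treated as the mouse counterpart of human IFI16, a sensor that acts with the adaptor STING. The genes form a single cluster in the mouse, whose copy number and content differ between mammals, and many of them are known as interferon-stimulated genes of myeloid cells.

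In GRCm38 coordinates the cluster runs along chromosome 1 from Aim2, whose annotation starts at 173350879, to Ifi205, which ends at 174031810. The order is Aim2, Ifi206, Ifi214, Ifi213, Ifi209, Ifi208, Ifi207, Ifi204, Mndal, Ifi211, Ifi203, Ifi202b and Ifi205. The annotated span of Mndal, chr1:173849126-173942491, holds the whole of Ifi211 (chr1:173896345-173913046) and overlaps Ifi203 (chr1:173920407-173942672), and all 3 lie on the minus strand. The bases just before the transcript start are shown for 6 members, because the main change in these data was a joint rise with IFN and many interferon-stimulated genes carry a short element there. The windows are 250 bases of RefSeq promoter sequence on GRCm38.p6, read 5′ to 3′ on the gene's strand and ending just before the start. They are chr1:173942493-173942742 for Ifi203, chr1:173880188-173880437 for Mndal, chr1:173913047-173913296 for Ifi211, chr1:174031756-174032005 for Ifi205 and chr1:173982845-173983094 for Ifi202b, all on the minus strand, and chr1:173630609-173630858 on the plus strand for Ifi209. Capitals mark the core of the interferon-stimulated response element, a GAAA half-site and a second GAAA half-site with 2 bases of any kind between them, searched on both strands. Ifi204 is named only.
Ifi203: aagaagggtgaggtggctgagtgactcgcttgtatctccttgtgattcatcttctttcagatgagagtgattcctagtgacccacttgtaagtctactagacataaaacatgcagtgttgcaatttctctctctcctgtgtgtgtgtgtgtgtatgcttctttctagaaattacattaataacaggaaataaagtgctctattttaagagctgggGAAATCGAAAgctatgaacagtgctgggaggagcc
Mndal: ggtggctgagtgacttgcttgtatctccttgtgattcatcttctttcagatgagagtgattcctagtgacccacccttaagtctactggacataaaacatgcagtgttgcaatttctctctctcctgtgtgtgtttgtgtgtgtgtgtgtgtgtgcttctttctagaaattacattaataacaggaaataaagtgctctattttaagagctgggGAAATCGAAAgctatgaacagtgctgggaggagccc
Ifi211: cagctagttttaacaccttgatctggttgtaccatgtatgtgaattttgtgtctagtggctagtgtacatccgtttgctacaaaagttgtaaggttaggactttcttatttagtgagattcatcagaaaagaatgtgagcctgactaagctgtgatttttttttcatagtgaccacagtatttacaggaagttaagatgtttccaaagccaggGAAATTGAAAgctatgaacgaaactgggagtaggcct
Ifi205: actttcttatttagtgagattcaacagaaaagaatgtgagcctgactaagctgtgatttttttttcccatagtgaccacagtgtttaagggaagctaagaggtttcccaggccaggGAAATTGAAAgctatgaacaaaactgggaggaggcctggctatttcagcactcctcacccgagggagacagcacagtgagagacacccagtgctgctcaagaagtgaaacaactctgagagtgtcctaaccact
Ifi209: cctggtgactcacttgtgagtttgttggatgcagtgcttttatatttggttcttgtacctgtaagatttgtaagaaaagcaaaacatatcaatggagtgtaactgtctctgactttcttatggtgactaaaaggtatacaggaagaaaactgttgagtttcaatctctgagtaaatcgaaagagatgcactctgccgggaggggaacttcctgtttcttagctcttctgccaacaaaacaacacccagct
Ifi202b: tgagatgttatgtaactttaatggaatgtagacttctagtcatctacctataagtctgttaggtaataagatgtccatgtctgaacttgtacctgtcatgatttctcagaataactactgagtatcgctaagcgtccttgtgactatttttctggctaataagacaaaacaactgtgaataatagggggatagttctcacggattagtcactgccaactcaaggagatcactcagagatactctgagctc

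The element was found in the promoter windows of 4 of the 6 members shown, Ifi203, Mndal, Ifi211 and Ifi205, and in 5 of the 6 other family genes, all but Aim2. Over all RefSeq windows, which run from 250 bases before to 50 after a start and are 300 bases long, 1131 of 32851 (3.44%) held it, and 1079 of 27025 genes (3.99%) had it in at least 1 window. Several family windows share long stretches, among them those of Ifi206, Ifi208 and Ifi213. The family genes are therefore not separate cases beside these shares. It began 35 bases before a start in Ifi203, 36 in Mndal and 37 in Ifi211, and 134 before it in Ifi205. Ifi203 and Mndal each have 2 windows in the table, and the one with this match is shown. The second Mndal window held a match on the opposite strand, and Ifi205 held another one after its start. The element read GAAATCGAAA in Ifi203 and Mndal and GAAATTGAAA in Ifi211 and Ifi205. The windows of Ifi203 and Mndal had 89.3% identical columns in a global alignment, against 40.4% to 56.8% for the other 14 pairs. Gap columns count in these shares, so like stretches at different distances from the start give a low share. The lowest share, that of Ifi205 with Ifi211, was 141 identical of 349 columns, although each window is 250 bases long. Their elements began 134 and 37 bases before the start. The shares therefore do not rank these pairs by likeness.

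**Figure D1:**
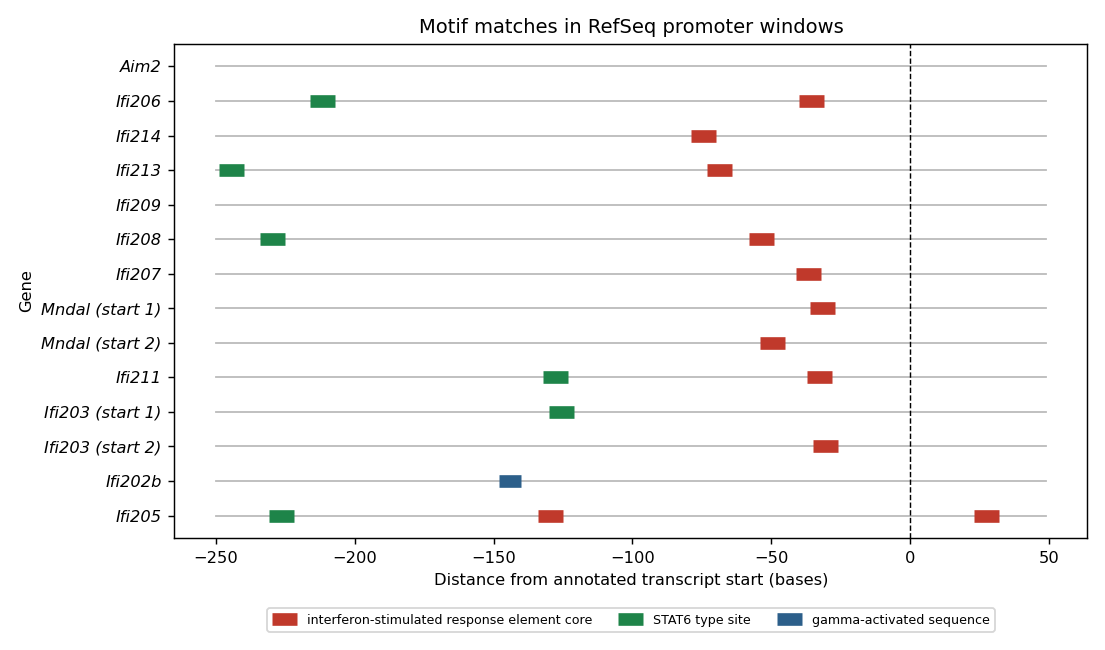
Motif matches in the RefSeq promoter windows of the family, drawn by distance in bases from the annotated start (dashed line), 1 line per window in chromosome order. Red bars mark the interferon-stimulated response element core, blue bars the gamma-activated sequence and green bars the STAT6 type site, and 4 of 6 members and 5 of 6 other family genes carry a red bar.

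A pair of further elements was searched on both strands. The gamma-activated sequence, TTC and GAA with 3 bases between them, was found in Ifi202b alone among the members and in 0 of the 6 other family genes, while 9.55% of all genes had it. The form with 4 bases between TTC and GAA, which STAT6 binds, was found in Ifi203, Ifi205 and Ifi211, in Ifi203 only in the window not shown. It was also found in 3 other family genes, and 8.01% of all genes had it. Both have the same letters on either strand, and no match of either overlapped a response element core in these windows. A match is only a match of letters in these windows, and windows that share a stretch can repeat the same match.

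Expected counts are RSEM's estimate of the reads from each gene, which shares out reads that fit several genes. This matters here because members are near copies of each other. Of the distinct 50-base words in the annotated transcripts of Ifi211, 72.8% also occur in another family gene, 44.7% in Ifi205 and 30.1% in Ifi204. The share was 33.4% for Ifi209, all of it with Ifi214, 19.1% for Ifi204, 18.6% for Ifi205, 17.3% for Mndal, 3.87% for Ifi203 and 0% for Ifi202b. Ifi204 and Ifi211 had an expected count that was not whole in 18 of 18 libraries, Ifi205 in 17, Mndal in 16, Ifi203 in 14 and Ifi209 in 11. How the reads were shared between Ifi211, Ifi205 and Ifi204 in particular is therefore uncertain, and strand cannot be used, since the labels name a directional and a non-directional preparation without saying which was used.

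The libraries held between 18098711 and 28477342 expected counts. Lyz2, which codes for lysozyme, ran from 0.682 to 7.12 CPM (counts scaled to library size, with TMM factors) in knockout libraries and from 2881 to 12108 CPM in wild type libraries. Rpl13a, the gene of L13a, ran from 156 to 606 CPM in knockout and from 437 to 867 CPM in wild type libraries. The ranges of Lyz2 did not overlap between genotypes. Within treatments, Rpl13a was at most 425 CPM in knockout and at least 437 CPM in wild type libraries with IFN, and at most 401 and at least 617 CPM untreated, and overlapped only with IL4, at most 606 and at least 598 CPM. Lyz2 thus differs with the labelled knockout, and its part in any genotype difference cannot be told apart from that of Rpl13a. The summed level of 8 macrophage markers was 6947 to 11720 CPM in knockout and 7125 to 10867 CPM in wild type libraries, and those of T and NK cells and of neutrophils were at most 2.03 and 1.06 CPM in any library. Transcripts of Y-linked genes summed to at least 134 CPM in wild type libraries untreated 1, IFN 4, IFN 5, IL4 7 and IL4 8, and to at most 3.19 CPM in the other 13 libraries.

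With IFN, all 6 members that could be tested rose, in knockout and in wild type macrophages, from 5.55-fold for Mndal to 129-fold for Ifi205, both in wild type cells. The seventh, Ifi202b, had 0 counts in all 18 libraries. The question of these comparisons is how each genotype responds to the cytokine, and the test was edgeR's quasi-likelihood test with Benjamini-Hochberg adjustment over 12514 genes. In knockout cells 12.6% of all genes tested were called higher with IFN, and in wild type cells 11.1%. The median log2 fold change of the 6 members was 4.13 in knockout and 3.35 in wild type cells, while that of all genes was -0.03 and -0.02. In every member the IFN libraries lay above the untreated ones with no overlap, as did 18.8% of all genes in knockout and 18.7% in wild type cells. The 6 members also passed the filter on low counts in the 6 untreated libraries alone, although Ifi205 was low there, at 0.102 to 1.64 CPM, so that its fold change rests on few counts.

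Ifi204, the likely counterpart of IFI16, had 468, 708 and 547 CPM in the knockout IFN libraries and 52.1, 56.2 and 44.3 CPM in the knockout untreated libraries. In wild type cells it had 539, 404 and 827 CPM with IFN and 75.3, 81.8 and 84.8 CPM untreated. Every IFN library lay above every untreated one, and the fitted rise was 11.3-fold in knockout (log2 3.50 ± 0.32 SE, adjusted p = 9.06e-07) and 7.32-fold in wild type cells (2.87 ± 0.31, adjusted p = 6.52e-06). Ifi203 had 227, 324 and 245 CPM in knockout IFN libraries and 27.0, 19.1 and 25.5 CPM in knockout untreated ones. Its wild type values were 297, 173 and 319 CPM with IFN and 29.8, 45.3 and 49.8 CPM untreated. The rise was 11.1-fold in knockout (log2 3.47 ± 0.30, adjusted p = 6.11e-07) and 6.33-fold in wild type cells (2.66 ± 0.29, adjusted p = 8.21e-06).

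Mndal, named for its likeness to the human myeloid nuclear antigen MNDA, had the smallest fold change of the 6 in both genotypes. It had 247, 290 and 213 CPM in knockout IFN libraries, 36.1, 28.2 and 24.6 CPM in knockout untreated libraries, 242, 172 and 346 CPM in wild type IFN libraries and 44.1, 47.1 and 45.7 CPM in wild type untreated libraries. The log2 fold change was 3.08 ± 0.27 in knockout (adjusted p = 5.70e-07) and 2.47 ± 0.26 in wild type cells (adjusted p = 5.27e-06). Ifi211, listed as Mnda in older annotation, had 334, 607 and 472 CPM in knockout IFN libraries and 11.4, 17.9 and 22.9 CPM in knockout untreated libraries. Wild type cells had 381, 336 and 741 CPM of Ifi211 with IFN and 18.8, 40.2 and 44.0 CPM untreated. This was a rise of 27.1-fold in knockout (log2 4.76 ± 0.45, adjusted p = 1.84e-06) and 14.2-fold in wild type cells (3.83 ± 0.43, adjusted p = 1.24e-05), on counts that share most of their sequence with Ifi205 and Ifi204.

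Ifi209, formerly Pyhin1, had 77.4, 303 and 188 CPM in knockout IFN libraries and 4.46, 3.53 and 5.80 CPM in knockout untreated libraries. In wild type cells its values were 136, 120 and 353 CPM with IFN and 8.67, 13.4 and 15.1 CPM untreated. The groups did not overlap, and the log2 fold change was 5.35 ± 0.63 in knockout (adjusted p = 1.77e-05) and 4.04 ± 0.58 in wild type cells (adjusted p = 0.000128). The wild type value was 3.37 without library IFN 6. It was 4.64 without the libraries with Y-linked transcripts, which leaves IFN 6 as the only wild type IFN library. Ifi205, whose product is known in mouse macrophages to affect the level of Pycard transcripts, was near the detection limit without IFN. Its knockout values were 25.6, 173 and 107 CPM with IFN and 0.102, 1.48 and 1.58 CPM untreated, and its wild type values 56.6, 48.0 and 200.2 CPM with IFN and 0.353, 1.64 and 0.530 CPM untreated. The fitted log2 fold change was 6.63 ± 0.80 in knockout (adjusted p = 9.41e-06) and 7.01 ± 0.83 in wild type cells (adjusted p = 8.44e-06). It depends on single libraries. Without knockout untreated 1 or knockout IFN 5 the knockout value was 6.01, and the wild type value was 7.84 without untreated 2 and 6.06 without IFN 6.

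Ifi202b encodes a protein with HIN domains and no pyrin domain that is known in mice to hold back Aim2, and its expression is known to differ widely between inbred strains. It had 0 counts in each of the 18 libraries and was not tested. A count of 0 allows up to 3 counts, that is 0.0963 to 0.181 CPM depending on the library, and covers counting error only. None of its 50-base words occurs in another family gene.

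**Figure D2:**
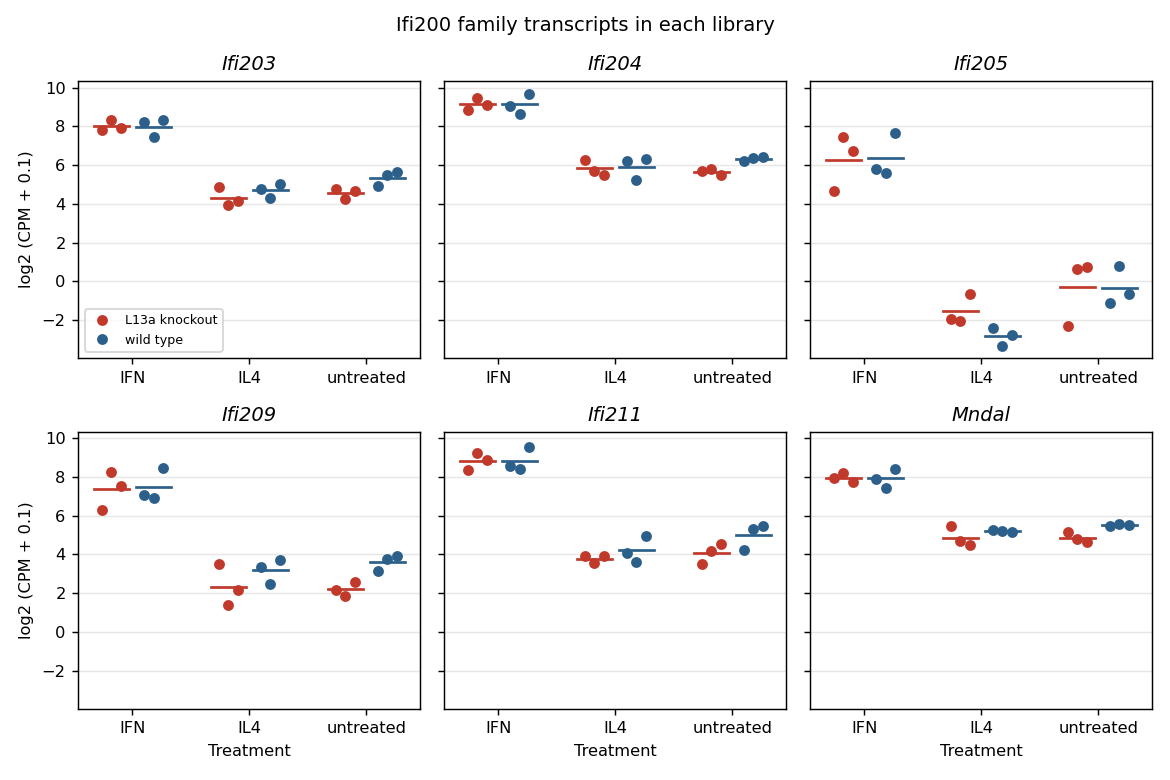
Level of the 6 detected members in each library, as log2 of CPM plus 0.1, by treatment, with knockout in red left of wild type in blue. Points are libraries and bars the mean of 3, and in every panel all IFN points lie above all untreated points of the same genotype.

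The other 6 family genes were also called higher with IFN in both genotypes. One of them, Ifi214, passed the filter on low counts only through its IFN libraries and had to differ, so its call is given no weight. Ifi206 rose most in knockout cells, with a log2 fold change of 7.46 ± 0.65 (adjusted p = 6.83e-08) and 5.79 ± 0.56 in wild type cells (adjusted p = 2.99e-07). Ifi208 and Ifi213 rose by 6.54 and 6.77 in knockout and by 5.84 and 5.18 in wild type cells on the log2 scale. The smallest rises were those of Aim2, 1.30 ± 0.22 in knockout and 1.30 ± 0.22 in wild type cells (adjusted p = 0.000391 and 0.000476), and of Ifi207, 1.40 ± 0.28 and 1.11 ± 0.28. All 6 members lay above Aim2 and Ifi207 in both genotypes, a ranking for which the differences between genes were not tested. Markers of dendritic cells also moved with IFN. The sum of 7 of them was 46.4 to 101 CPM in knockout IFN, 42.9 to 126 CPM in wild type IFN, 1.06 to 4.05 CPM in knockout untreated and 0.954 to 1.77 CPM in wild type untreated libraries, with Flt3, Cd209a and Siglech at 0 in wild type IFN libraries. Fibroblast markers were lower with IFN in wild type cells, where 8 of them summed to 51.7 to 101 CPM with IFN and 493 to 568 CPM untreated with no overlap, while knockout cells had 21.3 to 354 CPM with IFN and 53.6 to 207 CPM untreated. The part of these markers in the rise of the members was not tested, and in bulk RNA more cells of a type and more RNA per cell cannot be told apart.

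**Figure D3:**
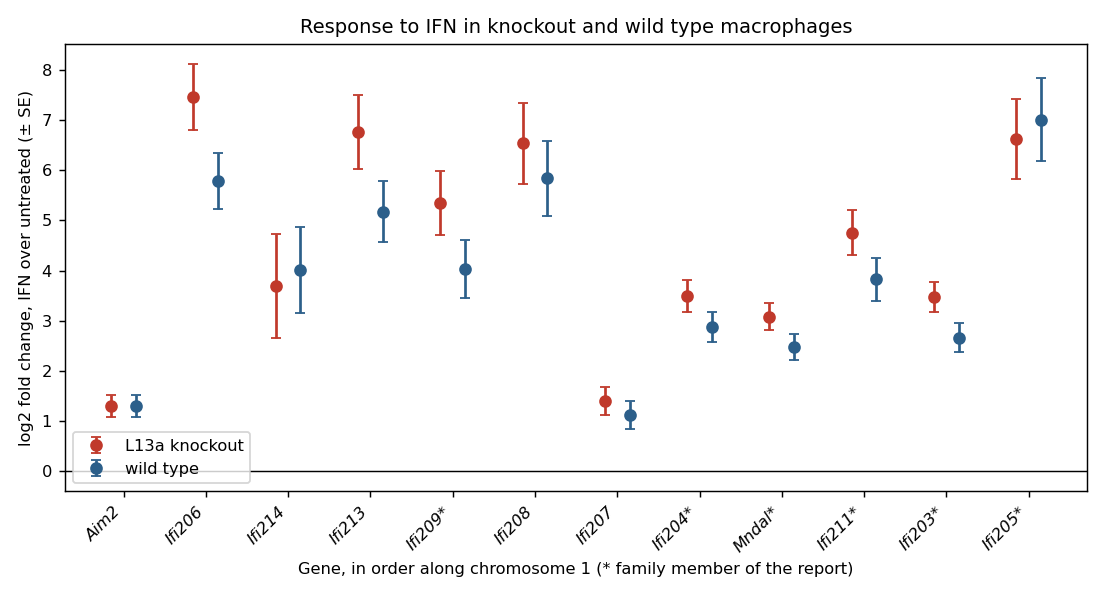
Fitted log2 fold change of IFN over untreated macrophages (± SE, 3 libraries a group) for the 12 tested family genes in chromosome order, knockout in red left of wild type in blue. All lie above 0, from 1.30 for Aim2 to 7.46 for Ifi206 in knockout cells. Ifi214 passed the filter on low counts only through its IFN libraries, so its values are given no weight.

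Levels of different members were compared as TPM, a deposited unit that corrects for transcript length. The summed TPM of the 7 members was 1395 ± 372 in knockout IFN, 1490 ± 475 in wild type IFN, 109 ± 41 in knockout IL4, 121 ± 34 in wild type IL4, 124 ± 11 in knockout untreated and 179 ± 15 in wild type untreated libraries (SD, n = 3 each). With IFN, Ifi211 and Ifi204 led with nearly equal parts, 30.5% ± 1.8 and 29.6% ± 1.9 of the members' TPM in knockout and 30.8% ± 2.8 and 30.0% ± 1.7 in wild type cells. Mndal followed with 18.4% ± 4.7 in knockout and 17.9% ± 2.4 in wild type cells, then Ifi203 with 9.28% ± 1.06 and 9.01% ± 2.26. Ifi205 and Ifi209 held 6.53% ± 3.67 and 5.75% ± 2.25 in knockout and 6.19% ± 2.77 and 6.09% ± 1.37 in wild type cells, and their ranges overlapped. Untreated cells had another order. Ifi204 led with 38.0% ± 3.9 in knockout and 36.6% ± 3.5 in wild type cells, Mndal came next with 30.1% ± 5.8 and 28.0% ± 3.8, and Ifi211 held 16.7% ± 6.2 and 19.2% ± 5.5. In all groups the parts of Ifi211, Ifi204 and Ifi205 depend on how RSEM shared out reads between them. The SDs cover the spread between libraries and not that uncertainty. The members made up 80.1% ± 0.4 of the family's TPM in knockout IFN and 79.7% ± 3.2 in wild type IFN libraries, against 49.4% ± 3.0 in knockout and 58.0% ± 1.6 in wild type untreated libraries, where Ifi207 alone held 94.9 ± 15.3 TPM in knockout and 100.1 ± 4.5 TPM in wild type libraries.

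**Figure D4:**
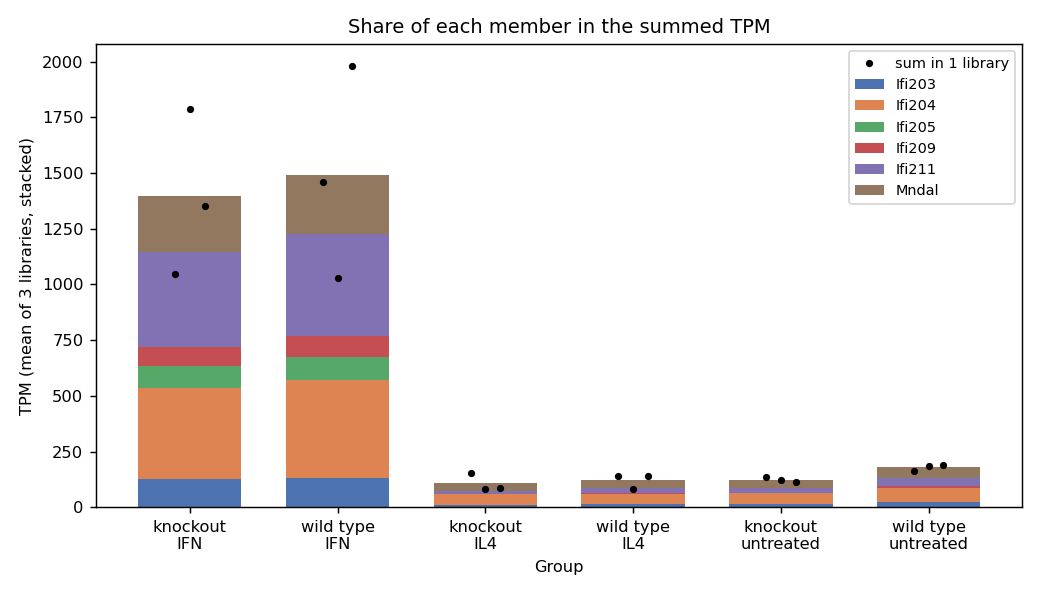
Mean TPM of each member by group, stacked, with the sum of the members in each library as black points, knockout left of wild type within a treatment. The IFN bars reach 1395 and 1490 TPM, and the others 109 to 179.

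Members deviated together within the IFN groups. Knockout IFN 5 was the highest knockout IFN library for all 6 tested members, and wild type IFN 6 the highest and IFN 5 the lowest wild type IFN library for all 6. Knockout IFN 4 was the lowest for all but Mndal. The spread was widest for Ifi205, with 25.6 against 173 CPM in knockout IFN 4 and IFN 5, and narrower for Mndal, with 247 and 290 CPM in the same libraries. Wild type IFN 6 is also the 1 wild type IFN library without Y-linked transcripts, and the part of that in its levels was not tested. The pattern was not limited to the members. Ifi206, Ifi213 and Ifi214 had the same highest and lowest IFN libraries as Ifi205. Ifi208 had wild type IFN 4 lowest, and Ifi207 had wild type IFN 4 highest and knockout IFN 6 lowest. Aim2 was highest in knockout IFN 4 and wild type IFN 4. The part of reads shared between near copies was not tested.

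Untreated knockout macrophages had lower values of 5 of the 6 tested members, by 0.62 to 1.41 on the log2 scale, and none of them passed the test. Ifi204 had 52.1, 56.2 and 44.3 CPM in knockout and 75.3, 81.8 and 84.8 CPM in wild type cells, a log2 fold change of -0.67 ± 0.29 (adjusted p = 0.621). Ifi203 had a fold change of -0.80 ± 0.28 (adjusted p = 0.483), with 19.1 to 27.0 CPM in knockout and 29.8 to 49.8 CPM in wild type cells. Ifi209 had the most negative value, -1.41 ± 0.60 (adjusted p = 0.610), with 3.53 to 5.80 CPM in knockout and 8.67 to 15.1 CPM in wild type cells. Mndal stood at -0.62 ± 0.25 (adjusted p = 0.569), with 24.6 to 36.1 against 44.1 to 47.1 CPM. These 4 had no overlap between the groups, and 7.66% of all genes tested were likewise lower with no overlap. Ifi211 stood at -0.98 ± 0.41 (adjusted p = 0.598) with overlapping groups, 11.4 to 22.9 CPM in knockout and 18.8 to 44.0 CPM in wild type cells, and Ifi205 at 0.39 ± 1.15 (adjusted p = 0.956). The unadjusted p of edgeR was under 0.05 for 5 of the 6 members and for 944 of 12514 genes. edgeR called 0.0799% of all genes in this comparison, 10 in number, and DESeq2 also called 0 of the members.

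The summed TPM of the members was 135, 124 and 113 in untreated knockout libraries and 162, 185 and 190 in untreated wild type libraries, which do not overlap. An exact two-sided permutation test gave p = 0.1, the smallest that 3 against 3 libraries allow. Leaving out the 5 wild type libraries with Y-linked transcripts, and so untreated 1 here, gave log2 fold changes of -0.97 for Ifi203, -0.69 for Ifi204, -1.60 for Ifi209, -1.26 for Ifi211 and -0.63 for Mndal. Fibroblast markers moved with the same groups: 8 of them summed to 116, 53.6 and 207 CPM in untreated knockout and 493, 568 and 559 CPM in untreated wild type libraries, with Lum at 0 in the wild type group. Its part in the lower values was not tested.

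With IFN the fitted differences between genotypes were at most 0.10 on the log2 scale, and the groups overlapped for all 6 members. The log2 fold changes of knockout over wild type were 0.01 ± 0.27 for Ifi203, -0.04 ± 0.29 for Ifi204, 0.01 ± 0.55 for Ifi205, -0.10 ± 0.50 for Ifi209, -0.04 ± 0.38 for Ifi211 and -0.02 ± 0.24 for Mndal, and none was called by edgeR or DESeq2 (0 of 6 at an unadjusted p under 0.05), where edgeR called 0.0639% of all genes. Without the libraries with Y-linked transcripts, all 6 values were negative, from -0.26 for Ifi203 to -0.96 for Ifi205. That fit leaves wild type IFN 6 alone in its group and assumes that it varies like the others. As IFN 6 was the highest wild type IFN library for all 6 members, keeping it alone lowers each value. No conclusion is drawn from the shared sign. With IL4 the values were -0.36 ± 0.29 for Ifi203, -0.12 ± 0.29 for Ifi204, -0.68 ± 0.61 for Ifi209, -0.53 ± 0.42 for Ifi211 and -0.26 ± 0.26 for Mndal, with overlapping groups. Neither edgeR, which again called 0.0639% of all genes, nor DESeq2 called a member, and 0 of 6 had an unadjusted p under 0.05.

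**Figure D5:**
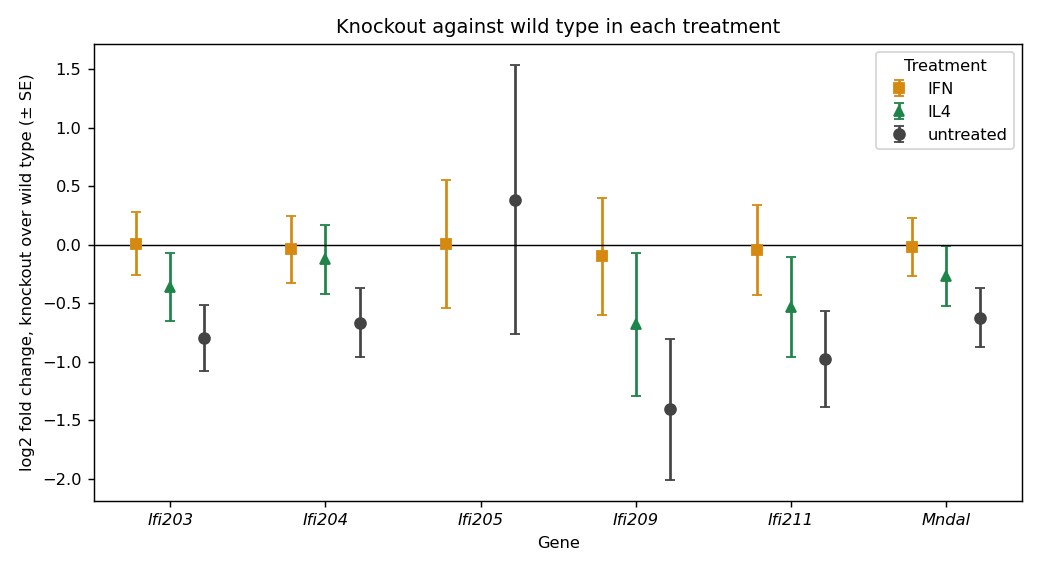
Fitted log2 fold change of knockout over wild type macrophages (± SE, 3 libraries a group) for the 6 tested members with IFN (squares), with IL4 (triangles) and untreated (circles). The IFN values lie within 0.10 of 0, the untreated values of 5 members between -0.62 and -1.41, and none passed the test. Ifi205 with IL4 is left out because wild type cells had 3 counts.

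Averaged over the 3 treatments, knockout over wild type gave -0.38 ± 0.16 for Ifi203 (adjusted p = 0.428), -0.52 ± 0.23 for Ifi211 (adjusted p = 0.464) and -0.73 ± 0.33 for Ifi209 (adjusted p = 0.468). These 3 of 6 members had an unadjusted edgeR p under 0.05, as had 1281 of all genes, and 0 were called by edgeR or DESeq2, where edgeR called 0.392% of all genes. The difference of the IFN responses, knockout minus wild type, was positive for 5 members: 0.81 ± 0.39 for Ifi203, 0.63 ± 0.41 for Ifi204, 1.31 ± 0.78 for Ifi209, 0.93 ± 0.56 for Ifi211 and 0.60 ± 0.35 for Mndal. It was -0.38 ± 1.28 for Ifi205. None was called (adjusted p = 1 for each in edgeR, 0 of 6 at an unadjusted p under 0.05, 0 in DESeq2), as was 0% of all genes by edgeR. The value uses the untreated libraries of both genotypes and so is not separate from the untreated comparison above.

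IL4, a cytokine of alternative activation, left the members near or below their untreated levels. No member was called in knockout or in wild type cells by edgeR, where 9.48% of all genes in knockout and 8.49% in wild type cells were called. In knockout cells the log2 fold changes were -0.22 ± 0.29 for Ifi203, 0.20 ± 0.29 for Ifi204, 0.39 ± 0.64 for Ifi209, -0.33 ± 0.42 for Ifi211, 0.05 ± 0.26 for Mndal and -1.89 ± 1.52 for Ifi205, with 0 at an unadjusted p under 0.05. Wild type cells gave -0.65 ± 0.28 for Ifi203 (the 1 of 6 members at an unadjusted p under 0.05, as were 2618 of 12514 genes, adjusted p = 0.200), -0.34 ± 0.29 for Ifi204, -0.34 ± 0.57 for Ifi209, -0.78 ± 0.41 for Ifi211 and -0.31 ± 0.25 for Mndal. Mndal had 37.7, 36.6 and 36.0 CPM in wild type IL4 and 44.1, 47.1 and 45.7 CPM in wild type untreated libraries. It and Ifi205 were the 2 members with no overlap there, where 14.7% of all genes were lower with no overlap. The fibroblast markers summed to 129 to 259 CPM in wild type IL4 and 493 to 568 CPM in wild type untreated libraries, and their part in these values was not tested. The difference of the IL4 responses between genotypes was called for 0 members and 0% of genes by edgeR, and for 0 members by DESeq2.

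Ifi205 had the lowest CPM after IL4 of the 6 detected members. Wild type IL4 libraries held 0.0862, 0 and 0.0446 CPM, 3 counts in all, and wild type untreated libraries 0.353, 1.64 and 0.530 CPM, 63 counts, a ratio of 0.0596 with an exact 95% counting interval of 0.0120 to 0.182. edgeR did not call it (adjusted p = 0.374), whereas DESeq2 did (adjusted p = 0.0149). Knockout IL4 libraries held 0.163, 0.142 and 0.536 CPM, 18 counts, which against the 3 of wild type IL4 cells is a ratio of 5.93 with an interval of 1.73 to 31.4. These intervals cover counting error only, the genotype difference was called by neither edgeR nor DESeq2, and 2.31% of all genes were higher in knockout IL4 libraries with no overlap.

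The pathway genes that act with the family were read from lists. Of 17 genes of cytosolic DNA sensing, 3 rose and 2 fell with IFN in knockout cells and 3 rose and 1 fell in wild type cells, with medians of -0.14 and 0.03 on the log2 scale. Of all genes, 12.6% rose and 8.93% fell in knockout cells and 11.1% rose and 7.55% fell in wild type cells, so these shares are near the background. The 3 that rose were the same in both. Tmem173, which encodes STING, rose by 2.99 ± 0.13 in knockout (257 ± 28 against 32.4 ± 2.3 CPM untreated, adjusted p = 2.08e-10) and by 2.67 ± 0.13 in wild type cells (adjusted p = 7.90e-10). Zbp1, a sensor of Z-form nucleic acids, rose by 7.20 ± 0.49 in knockout and 5.36 ± 0.44 in wild type cells. Irf7, a transcription factor of interferon genes, rose by 5.59 ± 0.78 and 4.79 ± 0.75. Xrcc5, a subunit of the DNA-binding Ku complex, fell by 1.51 on the log2 scale in wild type cells (adjusted p = 0.0459), and stood at -0.40 ± 0.55 in knockout cells (adjusted p = 0.674). Its levels were low, 0.940 to 1.32 CPM in wild type IFN and 2.18 to 4.03 CPM in wild type untreated libraries. The 2 that fell in knockout cells, named after their values were seen, were Lrrfip1 (-0.61 ± 0.15) and Trim32 (-0.50 ± 0.13).

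Of 9 genes that remove or edit nucleic acids, 4 rose and 1 fell with IFN in both genotypes. Samhd1, which degrades nucleotides, rose by 3.34 ± 0.20 in knockout and 2.96 ± 0.20 in wild type cells. Trex1, a DNA exonuclease, rose by 2.42 ± 0.29 and 1.75 ± 0.28, Pld4 by 1.64 ± 0.33 and 1.42 ± 0.33, and Adar, an RNA-editing enzyme, by 1.27 ± 0.26 and 1.16 ± 0.26. Of 5 partners of the Aim2 inflammasome, 4 rose in both genotypes: Casp1 by 1.98 ± 0.20 and 1.81 ± 0.20, Il18 by 2.09 ± 0.27 and 1.41 ± 0.25, Gsdmd by 0.84 ± 0.15 and 0.86 ± 0.15, and the adaptor Pycard by 1.10 ± 0.21 and 0.84 ± 0.21 in knockout and wild type cells. Of 14 genes of interferon signalling, 10 rose and 1 fell in knockout cells and 8 rose and 1 fell in wild type cells, among them Socs1 (7.28 ± 0.53 and 7.30 ± 0.54), Irf1 (4.55 ± 0.38 and 4.36 ± 0.38) and Jak2 (1.55 ± 0.19 and 1.64 ± 0.19). The 1 that fell in both, named after its values were seen, was the interferon receptor gene Ifnar1 (-0.68 ± 0.17 in knockout and -0.73 ± 0.17 in wild type cells).

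The same lists were read with IL4, where edgeR called 9.48% of all genes in knockout and 8.49% in wild type cells. The 1 of 17 and 1 of 9 genes called below are near these shares. Socs1, an inhibitor of cytokine signalling, and Jak2 were the 2 of 14 interferon signalling genes called higher in both genotypes, while 3 in knockout and 4 in wild type cells were called lower. Tmem173 was the 1 of 17 DNA sensing genes called, higher by 0.49 in knockout and 0.48 in wild type cells on the log2 scale. Of the 9 genes that remove or edit nucleic acids, the DNase gene Dnase2a alone was called, higher with IL4 by 0.45 in knockout and 0.65 in wild type cells, and it was also the 1 of them that fell with IFN, by 0.49 and 0.47 on the same scale. Of the 5 inflammasome partners, Pycard was called higher with IL4 in knockout cells (0.81 ± 0.21) and Il18 lower in wild type cells (-1.31 ± 0.29), and the differences between genotypes in these responses were not called.

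Over the 18 libraries, the genes whose log2 CPM followed each member most closely were as follows, as a description of libraries that share the same 6 groups. Ifi211 was most like Parp9, Ifi47 and Irgm1, with Pearson's r of 0.998, 0.992 and 0.992. Ifi204 was most like Sp140, Sp110 and Tnfsf10 (0.993, 0.992 and 0.991), and Mndal like Sp110, Sp140 and Herc6 (0.991, 0.990 and 0.990), so that these 2 neighbours shared 2 of their 3 closest genes. Ifi203 was most like Fcgr4, Dtx3l and Parp9 (0.988, 0.987 and 0.987), Ifi209 like Phf11d, Phf11b and Ifih1 (0.989, 0.983 and 0.980), and Ifi205 like Cxcl10, Cd69 and Irgm2 (0.981, 0.976 and 0.974). Between members, r was lowest for pairs with Ifi205 and highest for Ifi203 with Ifi211, Ifi203 with Mndal and Ifi204 with Mndal, at 0.986 each.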

How the data were processed

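Per the submitters' processing notes, reads were processed with Bowtie 0.12.8 and RSEM 1.2.3 on mm10, and per the labels' protocols the RNA was selected by poly-T beads. The authors deposited expected counts, TPM, and a median-normalized signal that, from its values, is TPM times 1 factor per library. The annotation release is not given in the sources used here. Every value column had a sample (0 unassigned), and 21.5% of the expected counts were not whole (tolerance 1e-06). From there, expected counts were rounded, filtered with filterByExpr (12514 genes kept), scaled by TMM and tested with edgeR 4.0.16 in R 4.3.3, with a robust quasi-likelihood fit using adjusted deviances, 1 coefficient per group and all 18 libraries, after a check on simulated data. A gene was called at a Benjamini-Hochberg adjusted p under 0.05 within each of 10 comparisons. Standard errors were derived from each log2 fold change and its F statistic. Depth was 18098711 to 28477342 expected counts per library. Other scaling and filtering, left-out libraries, a replicate block, DESeq2 1.42.0, and TPM on a log2 scale (pseudocount 1 or 0.1) fitted by limma 3.58.1 were tried as alternatives. Correlations across libraries used log2 CPM with a prior count of 2. Gene positions and transcripts come from GENCODE vM21 and promoters from RefSeq GRCm38.p6, aligned with Biopython 1.88. Title numbers shared by the genotypes were checked as pairs. Deviations of same-numbered libraries correlated at 0.296, 0.135 and 0.276 with IFN, 0.586, 0.323 and 0.449 with IL4, and 0.597, 0.042 and 0.358 untreated, so the numbers were taken to pair libraries with IFN and IL4 but not untreated ones. The edgeR values in Results nevertheless come from the fit without pairs. The replicate block was run only as an alternative.

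The members, lists and tests were chosen with earlier results of these data known. Named genes were all members, up to 4 genes per pathway list with the lowest p for IFN in wild type cells, the 3 genes most like each member, Rpl13a and Lyz2, of which 1 is not reported here. Ifi207, Ifi214, Dnase2a, Ifnar1, Lrrfip1, Trim32 and the markers at 0 were named after their values were seen.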

Additional observations from a re-analysis of the deposited data

How the results depend on the processing

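All 6 tested members were called higher with IFN in knockout and in wild type cells under every alternative run, and the comparisons between genotypes and between responses called 0 members under every one run for them. With IL4 in wild type cells DESeq2 called 1 member, Ifi205, at a log2 fold change of -4.23 (adjusted p = 0.0149) with 3 counts in the IL4 libraries, against 0 by edgeR and limma. All values that changed sign belonged to differences smaller than their SE, which no fit called, and the cause was not tested. Without the libraries with Y-linked transcripts, knockout over wild type was -0.0011 for Ifi205 untreated, -0.26 for Ifi203 with IFN and -0.96 for Ifi205 with IFN. These IFN values rest on wild type IFN 6 alone, the highest library of its group for both genes. On log2 of TPM plus 1 and plus 0.1, knockout over wild type with IFN was -0.0131 and -0.0129 for Ifi203 and -0.13 and -0.14 for Ifi205, and with IL4 it was 0.0073 and 0.0089 for Ifi204. IL4 over untreated knockout cells on the same 2 scales was -0.058 and -0.060 for Ifi204, -0.23 and -0.24 for Mndal and -0.0054 and -0.073 for Ifi209. On TPM plus 1 the median of all genes was -0.31 for IFN over untreated in knockout cells, against -0.03 by edgeR, and 0.15 for knockout over wild type untreated, against 0.0054. On median-normalized TPM plus 1, an alternative chosen after seeing the data, knockout over wild type with IFN was 0.017 for Ifi204, -0.020 for Ifi205, 0.022 for Ifi211 and 0.051 for Mndal, and IL4 over untreated knockout cells was -0.023 for Mndal. With the replicate block, knockout over wild type with IFN was -0.098 for Ifi205, 0.00061 for Ifi211 and 0.027 for Mndal, and the block called 24 genes with IFN and 27 with IL4, against 8 each without it, but changed no member's call. Untreated, where the numbers share only a number, the block called 96 genes against 10, and not every library correlated best with its own number. For knockout over wild type untreated, edgeR with the block gave adjusted p of 0.264 for Ifi203, 0.293 for Ifi204 and 0.262 for Ifi209. The values were 0.163 for Ifi211, 0.284 for Mndal and 0.904 for Ifi205.

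Leaving out 1 library at a time, knockout over wild type ranged from -0.16 to 1.24 for Ifi205 untreated, and with IFN from -0.21 to 0.17 for Ifi203, -0.24 to 0.29 for Ifi204, -0.61 to 0.96 for Ifi205, -0.27 to 0.39 for Ifi211, -0.22 to 0.27 for Mndal and -0.61 to 0.57 for Ifi209. With IL4 it ranged from -0.39 to 0.090 for Ifi204. IL4 over untreated knockout cells ranged from -0.07 to 0.33 for Ifi204, -0.31 to 0.21 for Mndal and -0.45 to 0.73 for Ifi209. The difference of responses ranged from -1.24 to 0.58 for Ifi205 with IFN and from -0.092 to 1.07 for Ifi209 with IL4. At this depth, Ifi202b and, after IL4, Ifi205 lie at or near the limit that 3 counts set.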
